A study of Mus musculus with 6 samples.

Results

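Neuronal intermediate filaments were described through 6 genes, *Prph*, *Nefl*, *Nefm*, *Nefh*, *Ina* and *Vim*, which were taken by symbol from the 32285 genes listed for each library. All 6 were found, and all 6 passed the filter on low counts in every comparison. The cells came from whole autonomic ganglia of pups at postnatal day 5, of both sexes, that carried a Cre BAC transgene and a tdTomato reporter at the *Rosa* locus, which Cre switches on. All groups share this genotype and age, and differ only in the ganglion: stellate and lumbar (sympathetic chain), coeliac (prevertebral sympathetic), sphenopalatine (parasympathetic) and pelvic. The pelvic ganglion had 2 libraries and every other ganglion had 1, in 2 rounds of sequencing. Round 1 (chemistry v2) comprised the stellate, the sphenopalatine and pelvic_1, and round 2 (chemistry v3) comprised the coeliac, the lumbar and pelvic_2. How many pups gave each library is not analysed here, and the replicate is the library.

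Intermediate filaments are the rope-like part of the cytoskeleton, and the set of subunits a cell makes is a long-used sign of its type. In mature neurons, the neurofilament light, medium and heavy subunits (*Nefl*, *Nefm*, *Nefh*) assemble together and fill the axon, where their amount goes with its calibre. Peripherin (*Prph*) is the type III subunit typical of peripheral neurons, and alpha-internexin (*Ina*), best known in the central nervous system, copolymerizes with the neurofilament subunits. Vimentin (*Vim*) is a type III subunit of glia, mesenchyme and progenitors that immature neurons also hold.

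In GRCm38 with the GENCODE M21 annotation, *Prph* lies on chromosome 15 (99055174-99058978, plus strand), *Nefh* on chromosome 11 (4938754-4948064, minus strand) and *Vim* on chromosome 2 (13573927-13582826, plus strand). *Nefl* (chromosome 14, 68083863-68089095, plus strand) lies inside the annotated span of *Nefm* (68082590-68124846, minus strand). *Ina* (chromosome 19, 47014698-47025327, plus strand) overlaps at its start with *Nt5c2*, on the other strand. Whether reads of *Nefl* and *Nefm* were in part exchanged was not tested.

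RefSeq promoter entries matched 3 of the 6 genes, and are shown because these 3 genes parted across ganglia, with *Prph* on one side and *Ina* and *Vim* on the other. Each is the 250 bases before the RefSeq start in GRCm38.p6, plus strand, and capitals mark the letters TATAAA. The regions are chr15:99054924-99055173 for *Prph*, chr2:13574061-13574310 for *Vim* and chr19:47014431-47014680 for *Ina*. The RefSeq start of *Vim* lies inside the GENCODE span given above, so that the region shown is within that annotated gene.
Prph: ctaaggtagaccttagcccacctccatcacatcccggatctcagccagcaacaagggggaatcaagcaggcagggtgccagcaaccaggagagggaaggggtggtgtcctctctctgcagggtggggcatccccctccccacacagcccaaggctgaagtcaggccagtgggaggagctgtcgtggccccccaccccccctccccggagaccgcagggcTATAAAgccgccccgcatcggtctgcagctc
Vim: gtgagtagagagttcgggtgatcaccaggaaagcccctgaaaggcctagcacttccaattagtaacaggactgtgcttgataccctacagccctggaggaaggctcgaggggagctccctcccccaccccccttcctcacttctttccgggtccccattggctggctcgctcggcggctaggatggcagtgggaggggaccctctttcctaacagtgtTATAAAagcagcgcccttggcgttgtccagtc
Ina: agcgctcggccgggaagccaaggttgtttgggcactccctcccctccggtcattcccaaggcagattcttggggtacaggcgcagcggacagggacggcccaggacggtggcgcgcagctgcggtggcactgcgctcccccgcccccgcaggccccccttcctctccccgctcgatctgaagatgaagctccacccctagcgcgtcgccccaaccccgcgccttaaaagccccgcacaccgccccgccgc
The match begins 31 bases before the start in *Prph* and 32 bases before it in *Vim*, and there were 0 matches in *Ina*. Of 32851 promoters of this length, 12.4% held TATAAA on either strand. *Prph* and *Vim* thus shared the letters and *Ina* lacked them, and any part of the letters in the levels was not tested. Entries for *Nefl*, *Nefm* and *Nefh* were not used here.

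The stellate gave 2723 neurons, the lumbar 930, the coeliac 237, the sphenopalatine 1902 and the pelvic libraries 889 (pelvic_1) and 367 (pelvic_2). The median neuron held between 26658 UMIs (unique molecular identifiers, 1 for each captured RNA molecule) in the stellate and 108493 in pelvic_2, and the median glial cell between 3525 and 12151. Libraries of the same round shared between 9 and 94 barcodes a pair, and in the coeliac 25 of the 237 neurons had a barcode also listed in another library of the round. Levels are CPM, the UMIs of a gene for every 1000000 UMIs, summed over the cells of a library or class. In all 6 libraries the 3 autonomic neuron markers (*Phox2a*, *Chrna3*, *Chrnb4*) were higher in neurons than in glia, at a summed 673 to 1228 CPM, against 26.3 to 50.2 CPM for the 5 sensory neuron markers. Since these UMIs tag 3' ends, they do not grow with transcript length, but unequal capture of different genes was not tested.

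All 6 genes were found in the neurons of every ganglion, and the ganglia differed in their proportions rather than in which genes were present. *Prph* reached 3091 CPM in the stellate, 3307 in the lumbar, 2906 in the coeliac, 4543 and 4692 in pelvic_1 and pelvic_2, and 4119.7 in the sphenopalatine. *Nefl* stood at 690.2, 847, 1029.9, 1632, 2443 and 990.1 CPM in the same order, and *Nefm* at 165, 411, 565, 677, 1382 and 245 CPM. Both pelvic libraries were above the other 4 for these genes.

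The heavy subunit *Nefh*, which lengthens the side arms of the filament, was the least frequent, at 63.0 CPM in the stellate, 66.6 in the lumbar, 70.5 in the coeliac, 108 in the sphenopalatine, 136 in pelvic_1 and 184 in pelvic_2. *Ina* was instead higher in sympathetic neurons, with 356, 595 and 497 CPM in the stellate, lumbar and coeliac, 212 in the sphenopalatine, 197 in pelvic_1 and 196 in pelvic_2. *Vim* likewise was highest in the 3 sympathetic libraries, at 410.2, 658 and 964 CPM, against 124 in the sphenopalatine, 178 in pelvic_1 and 228 in pelvic_2. Thus 4 genes were highest in both pelvic libraries and 2 were highest in the 3 sympathetic ones. This division was the same under each of the 8 other ways of choosing, thinning or averaging the neurons. These ways use the same libraries, and how many of all genes divide in this way was not counted.

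**Figure D1:**
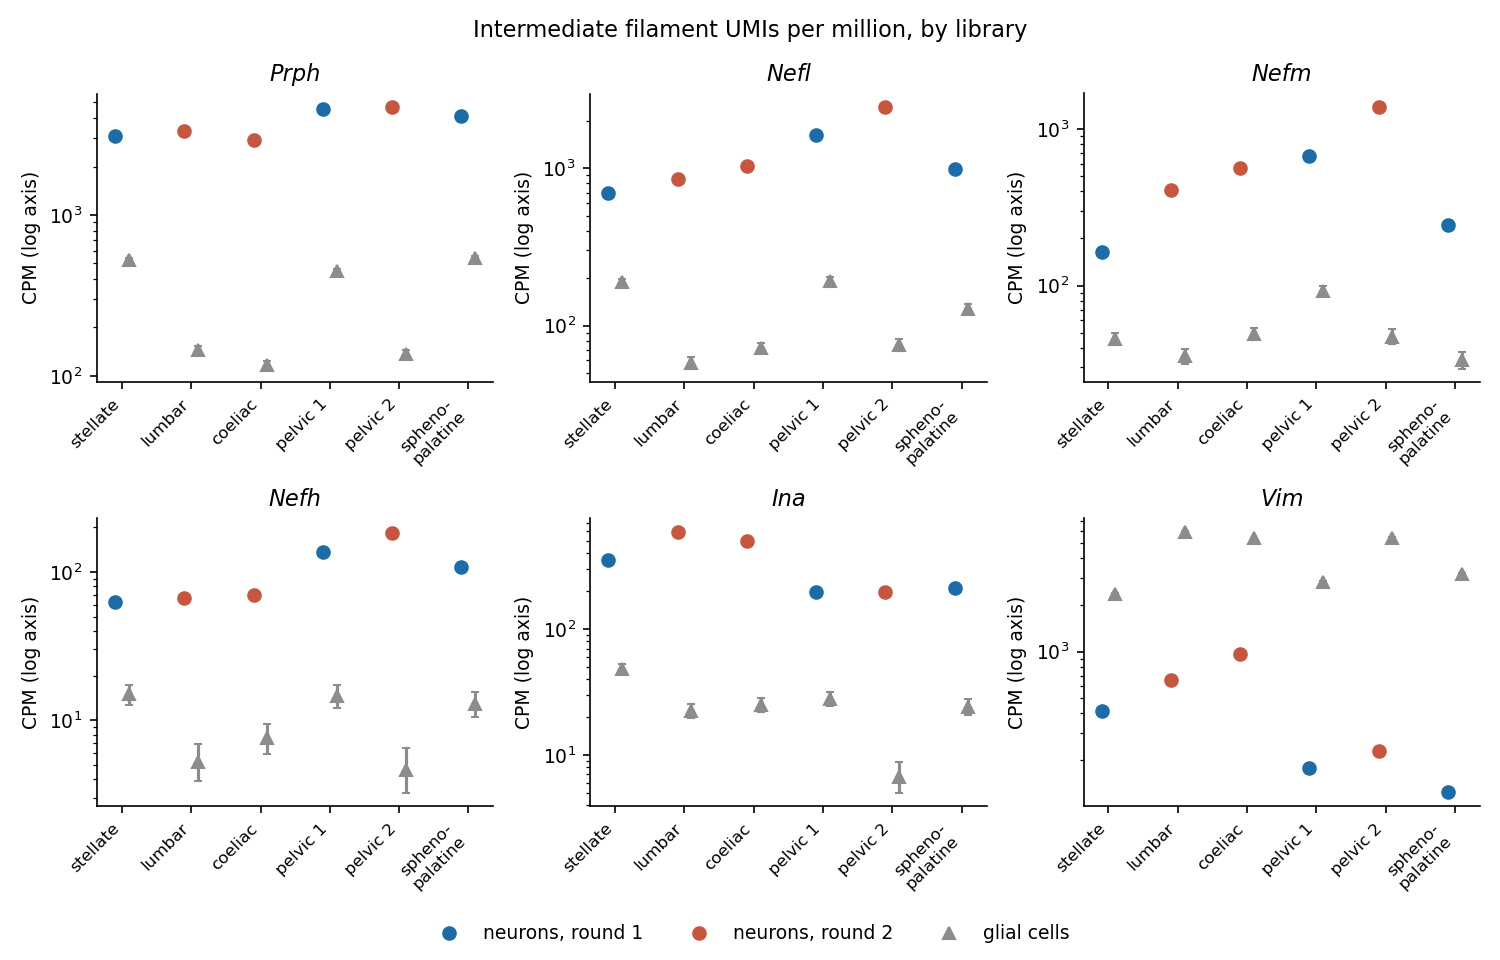
Each panel plots 1 gene, with CPM on a log axis, for the neurons (circles, coloured by round) and the glial cells (triangles) of each of the 6 libraries, and bars are exact 95% Poisson intervals that cover counting error only. In neurons *Prph*, *Nefl*, *Nefm* and *Nefh* are highest in the 2 pelvic libraries and *Ina* and *Vim* in the 3 sympathetic ones, while *Vim* alone is higher in glial cells than in neurons.

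With 1 library for each ganglion but the pelvic, no test between ganglia was made over all neurons, and the 2 pelvic libraries, which differ in round and chemistry, gave the only measure of spread. Pelvic_2 over pelvic_1 was 1.03-fold for *Prph*, 1.50-fold for *Nefl*, 2.04-fold for *Nefm*, 1.36-fold for *Nefh*, 0.99-fold for *Ina* and 1.28-fold for *Vim*. Within round 1, pelvic_1 exceeded the stellate 4.11-fold for *Nefm*, 2.36-fold for *Nefl*, 2.16-fold for *Nefh* and 1.47-fold for *Prph*. Within round 2, pelvic_2 exceeded the lumbar 3.36-fold for *Nefm*, 2.88-fold for *Nefl*, 2.77-fold for *Nefh* and 1.42-fold for *Prph*. In each case the fold was larger than that between the pelvic libraries. Between rounds this did not hold for *Nefm*, whose level in pelvic_1 (677 CPM) was close to that in the coeliac (565 CPM).

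For *Ina*, the stellate exceeded pelvic_1 1.81-fold, the lumbar exceeded pelvic_2 3.04-fold and the coeliac exceeded pelvic_2 2.54-fold, again more than the fold between the pelvic libraries. For *Vim* these folds were 2.31, 2.89 and 4.22. The sphenopalatine did not side with 1 group. Its *Ina* was close to that of pelvic_1 (1.07-fold), its *Prph* was 1.10-fold and its *Nefh* 1.25-fold below pelvic_1, whereas for *Nefl* and *Nefm* pelvic_1 exceeded it 1.65-fold and 2.76-fold. For *Nefh* that fold lay inside the spread of the pelvic libraries. Alpha-internexin thus made up 27.9% of the UMIs of *Ina*, *Nefl*, *Nefm* and *Nefh* together in the stellate, 31.0% in the lumbar and 23.0% in the coeliac, against 13.6% in the sphenopalatine, 7.46% in pelvic_1 and 4.65% in pelvic_2.

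The share of neurons with at least 1 UMI told the same for the medium subunit. After thinning each neuron to 4000 UMIs, *Nefm* was found in 38.3% of stellate, 63.8% of lumbar, 72.8% of coeliac, 85.1% of pelvic_1, 95.4% of pelvic_2 and 45.3% of sphenopalatine neurons. Unthinned, these shares were 80.9%, 97.1%, 96.6%, 99.8%, 99.7% and 85.3%. Thinning left out 1 to 41 shallower neurons a library. At the depth of 2000 UMIs, which glial cells also reached, *Nefm* was found in 23.2% to 86.9% of neurons and in 4.05% to 9.56% of glial cells.

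The comparison of neurons with glial cells asked how much of each gene's signal could be free RNA. Glial cells held 117 to 541 CPM of *Prph*, 57.8 to 193 of *Nefl*, 33.2 to 92.5 of *Nefm*, 4.64 to 14.9 of *Nefh* and 6.68 to 48.1 of *Ina*. In each of the 6 libraries these were lower than in neurons, without overlap between the classes for any of the 5 genes. The share of all genes without such overlap was not counted. *Vim* was the reverse, at 2342 to 5934 CPM in glia and 124 to 964 CPM in neurons. Fitted within libraries (edgeR quasi-likelihood test, Benjamini-Hochberg adjustment over 14016 genes), neurons exceeded glia by 3.92 ± 0.37 (SE, log2) for *Prph*, 3.51 ± 0.37 for *Nefl*, 3.32 ± 0.35 for *Nefm*, 3.45 ± 0.36 for *Nefh* and 3.85 ± 0.33 for *Ina*. *Vim* fell by 3.49 ± 0.37. Adjusted p-values lay between 2.0e-05 for *Ina* and 6.0e-05 for *Nefl*. Of all genes tested, 75.1% were called, 37.3% higher and 37.8% lower, so that a call alone says little here. Among other intermediate filament genes, 3 of 8 tested were called higher in neurons and 5 lower, from *Nes* (nestin, of progenitors and glia; -6.09) to *Sync* (syncoilin; 2.60). All 18 microtubule and growth cone genes were higher, 4 of which had served to choose the neurons.

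Glial levels of the 5 neuronal genes were between 2.51% and 27.7% of the neuronal level. They were set against the glial shares of 7 other neuronal genes not used to select the cells. The 5 were at or below the highest of these 7 in pelvic_1, pelvic_2 and the sphenopalatine. In the stellate, the lumbar and the coeliac, 3, 2 and 3 of the 5 were, and the highest of the 5 shares (27.7%, 8.59% and 10.7%) exceeded the highest of those genes (27.1%, 5.89% and 8.65%). The highest of the 7 was *Scg2* in pelvic_1 (17.5%) and in pelvic_2 (16.9%). Next in pelvic_1 was *Uchl1* (12.8%), which *Nefm* (13.7%) and *Ina* (14.2%) exceeded. Whether glial cells make any RNA of the 5 genes was not tested. In fibroblast-like, endothelial-like, mural-like and macrophage-like cells, *Prph* likewise was between 25.9 and 365 CPM and *Ina* between 2.30 and 31.0 CPM.

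Neuronal *Vim* stood above the level of most glial genes. It was 17.5%, 11.1% and 17.9% of the glial level in the stellate, lumbar and coeliac, 6.34% and 4.22% in the pelvic libraries and 3.94% in the sphenopalatine. Of 7 glial genes not used to select the cells, 6 were in neurons at 0.19% to 2.63% of their glial level, below *Vim* in each library. The exception was *Gfra3*, a receptor of the GDNF family, at 18.2% to 102% outside the sphenopalatine and 0.44% in it. Fibroblast-like, endothelial-like and mural-like cells also held *Vim*, and neurons had 5.61% to 42.5% of the level there, while the median of each class's 6 markers was at most 0.59%. The summed level of the 7 glial genes in neurons, *Gfra3* included, was lowest in the coeliac (90.9 CPM) and highest in pelvic_1 (262 CPM), and its part in the *Vim* level was not tested.

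**Figure D2:**
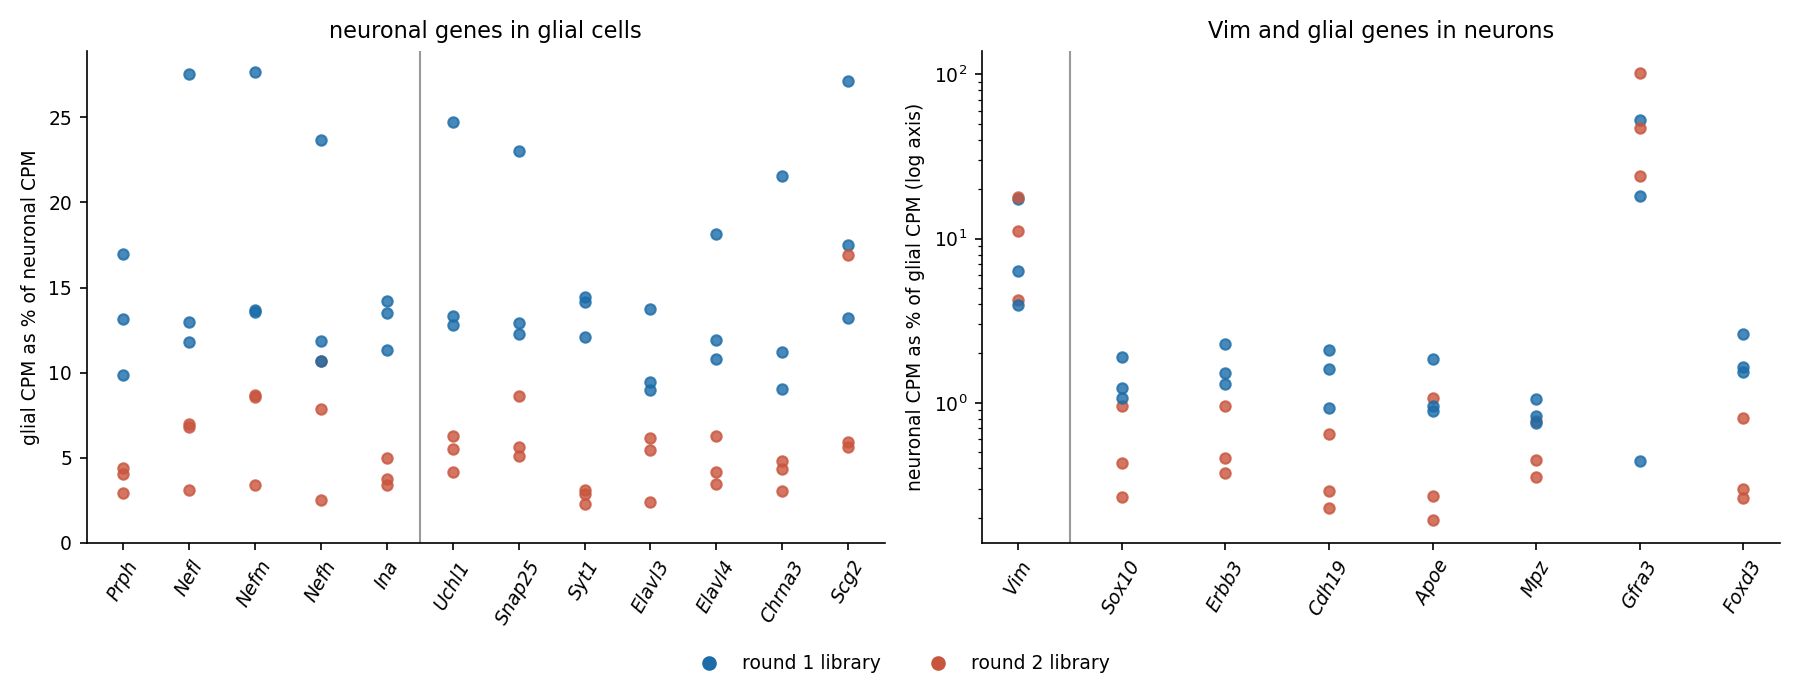
The left panel plots the glial level as a percent of the neuronal level for 5 of the genes and 7 other neuronal genes, and the right panel the neuronal level as a percent of the glial level, on a log axis, for *Vim* and 7 glial genes, with 1 point for each library. The 5 genes reach 27.7% and the other neuronal genes 27.1%, both in the stellate, and *Vim* lies above each glial gene but *Gfra3*.

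Neurons were then divided by transmitter, since noradrenergic and cholinergic neurons occur side by side in the stellate, the lumbar and the pelvic ganglion. Clusters were computed in each ganglion without the 6 genes and named by transmitter markers (*Th*, *Dbh*, *Slc18a2*, *Slc6a2* or *Chat*, *Slc18a3*, *Slc5a7*, *Vip*), by a rule set after the clusters were seen. The noradrenergic and cholinergic sums held 2069 and 56 neurons in the stellate, 776 and 84 in the lumbar, 130 and 663 in pelvic_1, and 33 and 321 in pelvic_2. The stellate cholinergic clusters also carried 3 or 4 of the 4 noradrenergic markers, and in 1 of them, with 28 of the 56 neurons, the noradrenergic markers summed to 1099.6 CPM against 897 CPM of the cholinergic ones. Taken singly, only 2 stellate and 16 lumbar neurons held more UMIs of *Chat*, *Slc18a3* and *Slc5a7* than of the 4 noradrenergic markers. *Vip* was left out of this count, which also set the classes for each neuron in an alternative given below. The lumbar cholinergic cluster had a median of 7779.5 UMIs against 67156.5 in the noradrenergic neurons there. Its 84 neurons held 4069254 UMIs together, so that the deeper of them gave most of its sum. In the stellate the cholinergic neurons were instead deeper, with a median of 43276 UMIs against 28877. *Nefh* and *Nefl* differed with depth, as given below, and the part of depth in this contrast was not tested.

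*Nefh*, summed by class, was about doubled in the neurons named cholinergic in each of the 4 libraries. It went from 65.6 to 131 CPM in the stellate, from 62.2 to 115 in the lumbar, from 71.3 to 145 in pelvic_1 and from 97.2 to 193 in pelvic_2. Within these 4 libraries the sums of the classes did not overlap. How many of all genes part in this way was not counted. By single cluster the classes did overlap in the stellate. Of its cholinergic clusters, the one led by *Vip* held 87.9 CPM, below noradrenergic clusters 3 (96.5 CPM) and 5 (96.0 CPM). The other, with more noradrenergic than cholinergic marker CPM, held 172 CPM. Pelvic cholinergic cluster 4 held 84.6 CPM in pelvic_1 and 122 in pelvic_2, against 71.3 and 97.2 CPM in the noradrenergic cluster. A stellate cluster of 182 neurons, left unnamed and described below, held 14.6 CPM of *Nefh*. It carried 1 of the 4 cholinergic markers, and these summed to 1746 CPM there, against 1540 CPM of noradrenergic ones. The sphenopalatine has no noradrenergic class and took no part in the test. Its 861 neurons named cholinergic held 95.3 CPM, below the noradrenergic neurons of pelvic_2 (97.2 CPM). Its 1041 unnamed neurons held 118 CPM, and all 1902 together held 108 CPM, above those of pelvic_2. Over the 4 libraries tested, the difference was 0.97 ± 0.083 (SE, log2; adjusted p = 0.0049, edgeR). It passed in 13 of 17 alternatives, leaving out each library included, and did not without the library block (adjusted p = 0.051), without the exclusion of glial markers (adjusted p = 0.077), with simulated doublets removed (adjusted p = 0.11) or with classes set for each neuron, which left the pelvic and sphenopalatine libraries (adjusted p = 0.29).

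*Nefm* rose from 152 to 417 CPM in the stellate, 425 to 767 in the lumbar, 503 to 695 in pelvic_1 and 945 to 1437 in pelvic_2. Its difference was 0.84 ± 0.15 (log2; adjusted p = 0.034), and the groups overlapped between ganglia. The call was lost on leaving out any of the 4 libraries (adjusted p between 0.058 and 0.11). *Prph* was 1.20-, 1.33-, 1.31- and 1.43-fold as high in cholinergic neurons, a difference of 0.39 ± 0.10 that did not pass (adjusted p = 0.079). *Vim* differed by -0.16 ± 0.13 (adjusted p = 0.49). Thus 2 of the 6 genes were called higher and 0 lower, where 6.51% of all 13617 genes were called, 3.71% higher and 2.81% lower. In simulated data, 14.6% of the calls of this comparison were of unchanged genes.

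*Nefl* and *Ina* did not move alike in the sympathetic and the pelvic libraries. *Nefl* went from 682 to 1419.9 CPM in the stellate and from 829 to 1948 in the lumbar, but from 1878 to 1594 in pelvic_1 and from 2424 to 2462 in pelvic_2. *Ina* went from 362 to 179.5 CPM in the stellate and from 609 to 342 in the lumbar, but from 143 to 207 in pelvic_1 and from 154 to 199.8 in pelvic_2. Over the 4 libraries neither passed (*Nefl* 0.51 ± 0.26, adjusted p = 0.30; *Ina* -0.24 ± 0.31, adjusted p = 0.70). The difference of the contrast between pelvic and sympathetic libraries, a test added after these values were seen, was -1.16 ± 0.19 for *Nefl* (adjusted p = 0.0065) and 1.46 ± 0.18 for *Ina* (adjusted p = 0.0016). For the other 4 genes it was between -0.52 and 0.20 and did not pass. Of all genes, 5.57% passed this test, 2.63% higher and 2.94% lower.

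**Figure D3:**
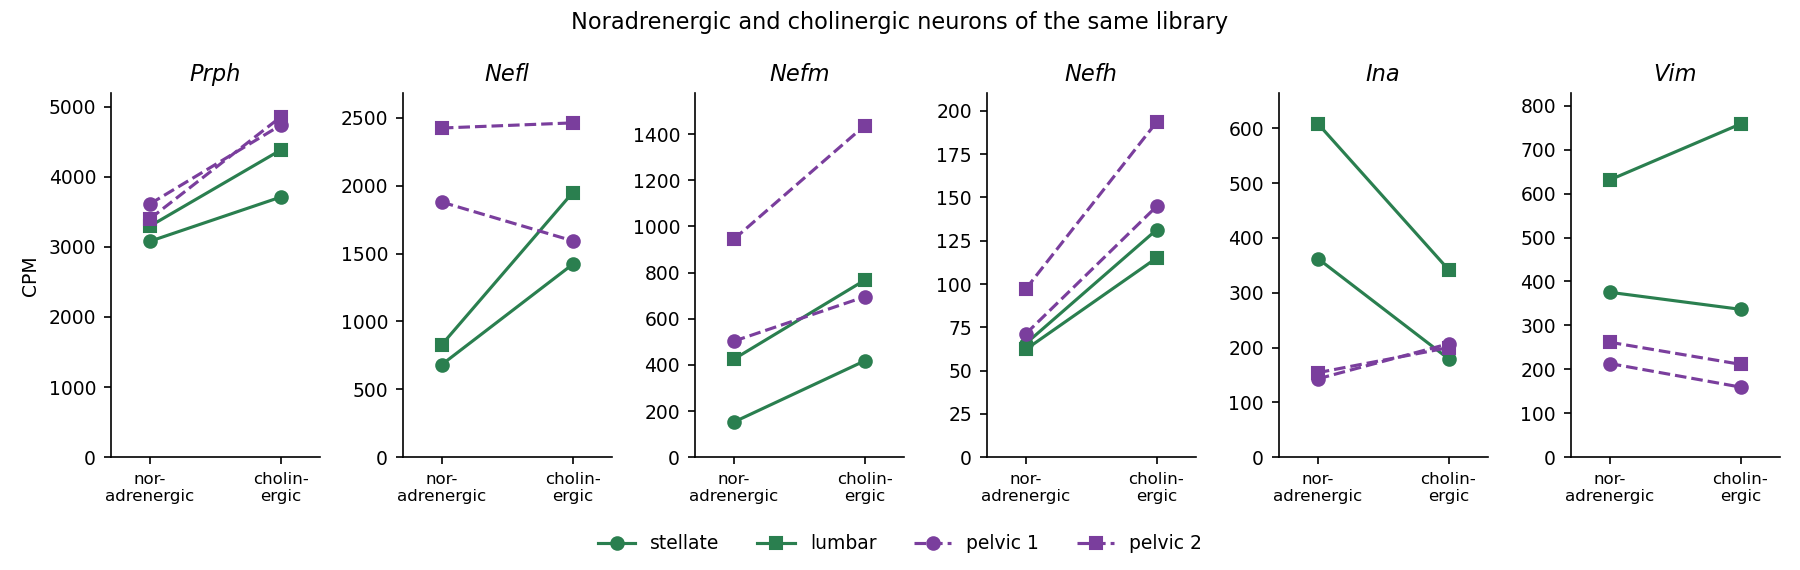
Each panel plots 1 gene, with CPM on the vertical axis, in the noradrenergic and cholinergic neurons of a library, joined by a line (sympathetic libraries solid, pelvic libraries dashed). *Nefh* rises in 4 of 4 libraries, while *Nefl* and *Ina* change in the 2 sympathetic libraries in a way that the 2 pelvic libraries do not share.

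Other genes of the cytoskeleton were counted by list in the same comparison. Of 7 tested intermediate filament genes outside the 6, only *Synm* (synemin) was called, higher in cholinergic neurons by 2.23 ± 0.25 (log2; adjusted p = 0.0095). Of 4 linker genes, *Plec* (plectin, which ties filaments to other structures) was called higher, by 0.65 ± 0.12 (adjusted p = 0.033). Of 14 genes of neurofilament phosphorylation, turnover and transport, 1, the small heat shock protein *Hspb1*, was called higher (0.72 ± 0.13, adjusted p = 0.032). Of 18 microtubule and growth cone genes 0 were higher and 2 lower, *Stmn4* (-0.56 ± 0.11) and *Dpysl3* (-0.46 ± 0.10). The median differences of these lists were 0.19, 0.53, -0.02 and -0.25, against -0.02 over all genes.

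Noradrenergic neurons allowed the pelvic ganglion to be set against sympathetic ganglia within 1 transmitter class. *Nefl* was at 682 CPM in the stellate, 829 in the lumbar and 1252 in the coeliac, against 1878 in pelvic_1 and 2424 in pelvic_2. *Ina* was at 362, 609 and 394 CPM in the 3 sympathetic libraries, against 143 and 154 CPM. *Vim* was at 375, 631 and 795 CPM, against 213 and 262 CPM. For each of these 3 genes the pelvic and the sympathetic values did not overlap. The share of all genes that part in this way was not counted, so that this is a description.

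With a term for round, pelvic noradrenergic neurons differed by 1.29 ± 0.20 for *Nefl* (SE, log2; adjusted p = 0.034, edgeR), -1.58 ± 0.23 for *Ina* (adjusted p = 0.032) and -1.20 ± 0.20 for *Vim* (adjusted p = 0.042). *Nefm*, at 152, 425 and 607 CPM in the sympathetic libraries and 503 and 945 CPM in the pelvic ones, differed by 1.21 ± 0.25 and did not pass (adjusted p = 0.073). *Prph* (0.14 ± 0.13) and *Nefh* (0.19 ± 0.20), both higher in pelvic neurons as a whole, did not pass either (adjusted p = 0.64 and 0.67). Called were thus 1 gene higher and 2 lower of 6, where 3.56% of 13426 genes were called, 1.82% higher and 1.74% lower. In simulated data, 12.2% of the calls of this comparison were of unchanged genes. The 3 calls rested on 5 sums. They were lost without the stellate, without either pelvic library, without the term for round and with stricter glial exclusion (adjusted p from 0.050 to 0.42), with the same direction in each. The coeliac sum held 93 of 237 neurons, since 1 cluster of 144 was led by a fibroblast marker and stayed unnamed. The noradrenergic neurons of the stellate, the lumbar and the pelvic libraries also serve in the transmitter contrast, so that the 2 comparisons are not independent.

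Among the other cytoskeleton genes, only *Map1a*, a microtubule-associated protein, was called in this comparison (0.64 ± 0.11 higher in pelvic neurons, adjusted p = 0.048), 1 of 18 microtubule and growth cone genes. Of the 7 other intermediate filament genes, the 4 linkers and the 14 genes of phosphorylation, turnover and transport, 0 were called.

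The pelvic ganglion was the only one with 2 libraries, and 4 of its 7 clusters could be named by the markers of P1 to P4. They held 452 (P1-like), 351 (P2-like), 163 (P3-like, noradrenergic) and 86 (P4-like) neurons, with both libraries in each. Clusters were cut from other genes of these same neurons, so that the p-values below describe how the clusters of these libraries stand apart and are no independent test of a cell type.

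Among the named clusters, P2-like neurons, led by *Grp*, had the most *Nefh* and the least *Vim*. *Nefh* was at 170 CPM in pelvic_1 and 236 in pelvic_2 in P2-like, 140.1 and 196 in P1-like, 113 and 131 in P4-like and 71.3 and 97.2 in P3-like, in the same order in both libraries. *Vim* was at 45.3 and 49.6 CPM in P2-like, against 164.6 to 304 CPM in the other 3. That level was 1.62% and 0.917% of the glial one. Over all neurons, the 6 glial genes were at 0.832% to 2.63% of their glial level in pelvic_1 and 0.449% to 1.07% in pelvic_2. P2-like neurons held 50.7 CPM of the 7 glial genes, *Gfra3* included, against 262 CPM over all neurons of pelvic_1 and 182 CPM in pelvic_2. Whether *Vim* was above the background within P2-like was not tested. Relative to the mean of the other 3 clusters, P2-like differed by 0.80 ± 0.090 for *Nefh* (adjusted p = 6.0e-07), 0.49 ± 0.092 for *Nefm* (adjusted p = 0.00039) and 0.44 ± 0.087 for *Prph* (adjusted p = 0.00072, edgeR). The *Prph* call ended with simulated doublets removed (adjusted p = 0.065). *Vim* was called lower, with no size given since whether its level was above background was not tested. P2-like neurons also enter the mean that the *Vim* of the other 3 clusters is set against below. Called were 3 of 6 higher and 1 lower, where 23.4% of 13185 genes were called, 12.4% higher and 11.0% lower.

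P4-like neurons, with *Calca* and *Aldh1a2* among their leading genes, paired low *Prph* with high *Ina*. With simulated doublets removed no P4-like cluster was found, so that none of its calls could be made there. *Ina* was at 344 CPM in pelvic_1 and 389 in pelvic_2, against 143 to 219 CPM in the other 3 clusters, a difference of 1.00 ± 0.095 (adjusted p = 3.6e-08). *Nefm* was at 1006 and 1901 CPM, the highest of the 4 in each library (0.60 ± 0.093, adjusted p = 3.2e-05), and *Prph* at 3375 and 3350.4 CPM, the lowest in each (-0.46 ± 0.092, adjusted p = 0.00062). *Vim* was called higher (0.80 ± 0.12, adjusted p = 2.3e-05, edgeR), but the call ended when cells with less glial signal were required (0.16, adjusted p = 0.32). P4-like neurons held 555 CPM of the 7 glial genes against 50.7 to 306 CPM in the other named clusters. The 7 include *Gfra3*, which was among the leading genes of P3-like, the cluster at 306 CPM. Called were 3 of 6 higher and 1 lower, where 26.1% of all genes were called, 14.7% higher and 11.4% lower.

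P3-like neurons were low in *Nefh*, *Nefm* and *Ina*. They differed by -0.96 ± 0.10 for *Nefh* (adjusted p = 2.5e-07), -0.70 ± 0.099 for *Nefm* (adjusted p = 1.0e-05), -0.71 ± 0.10 for *Ina* (adjusted p = 1.5e-05) and -0.35 ± 0.091 for *Prph* (adjusted p = 0.0061), whereas *Vim* was higher by 0.88 ± 0.12 (adjusted p = 3.9e-06). Called were 1 of 6 higher and 4 lower, where 26.5% of all genes were called, 13.5% higher and 13.1% lower. P1-like neurons, the most frequent, had *Prph* higher by 0.37 ± 0.087 (adjusted p = 0.0039) and *Nefh* by 0.43 ± 0.090 (adjusted p = 0.0014), and *Nefm* lower, at -0.39 ± 0.097 (adjusted p = 0.0064). With simulated doublets removed the calls of *Prph* (adjusted p = 0.17) and *Nefm* (adjusted p = 0.24) ended. Their *Vim* was called higher (0.46 ± 0.11, adjusted p = 0.0066), a call that ended without the exclusion of glial markers (adjusted p = 0.32). At 169 CPM in pelvic_1 and 197 in pelvic_2, it was below P3-like in both (213 and 262 CPM). The mean it was set against includes P2-like, at 45.3 and 49.6 CPM. For P1-like 3 of 6 were called higher and 1 lower, where 15.7% of all genes were called, 9.37% higher and 6.36% lower.

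*Nefl* was called in no pelvic cluster. Its level went from 1338 to 1878 CPM over the 4 named clusters in pelvic_1 and from 2259 to 2699 in pelvic_2 (adjusted p from 0.063 to 0.76, edgeR). Another cluster (cluster 4) of 95 cholinergic neurons, led by *Areg* and *Cartpt* and given no P name, held 604 and 682 CPM of *Vim*, the most of the 5 in both libraries. Its leading genes include *Vim*, although *Vim* took no part in the clustering.

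**Figure D4:**
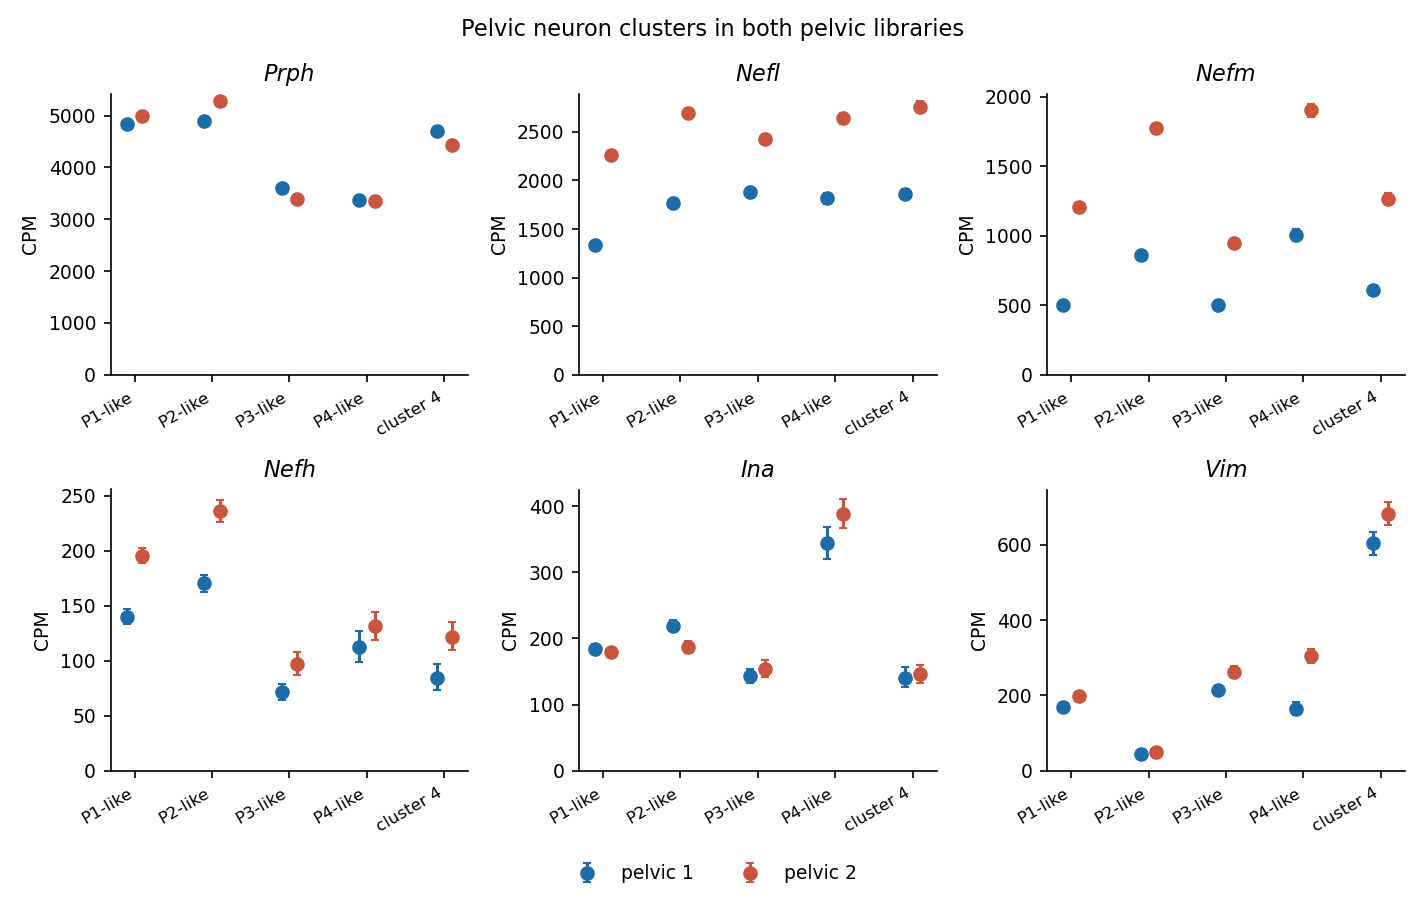
Each panel plots 1 gene in 5 pelvic clusters, with CPM on the vertical axis from 0, pelvic_1 in blue and pelvic_2 in red, and bars as exact 95% Poisson intervals that cover counting error only. *Nefh* is highest in P2-like, *Ina* in P4-like and *Vim* in cluster 4, in both libraries, while *Nefl* lies between 1338 and 1878 CPM over the named clusters of pelvic_1.

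The other cytoskeleton genes also parted among pelvic clusters. *Synm* was 2.16 ± 0.10 (log2) higher in P1-like neurons (adjusted p = 1.7e-12), and fell by 0.78 in P2-like and fell by 1.08 in P3-like. *Hspb1* was 2.17 ± 0.12 higher in P4-like (adjusted p = 1.2e-11) and fell by 1.52 ± 0.14 in P2-like and by 1.02 ± 0.15 in P3-like. Of the 18 microtubule and growth cone genes, 11 were called lower and 0 higher in P4-like, where 11.4% of all genes were called lower. Among the 11 were *Gap43* (-0.92), *Map1b* (-0.89) and *Dpysl3* (-0.86), and the list had a median of -0.38 against -0.01 over all genes. *Gap43* and *Tubb3*, both among the 11, had served to choose the neurons. Higher and lower calls numbered 6 and 0 in P1-like, 3 and 2 in P2-like and 5 and 1 in P3-like. Each was set against a mean that includes P4-like.

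Clusters within the other ganglia also spanned wide ranges. In the sphenopalatine, *Nefl* went from 323 to 2138 CPM over 10 clusters, *Nefm* from 45.8 to 771, *Ina* from 90.1 to 399 and *Vim* from 16.3 to 361, the last in a cluster led by glial genes. The lowest *Vim* was 0.518% of the glial level, against 0.755% to 1.54% for the 6 glial genes without *Gfra3* over all neurons there. Whether it was above the background within that cluster was not tested. The sphenopalatine cluster with the most *Nefl* and *Nefm*, 194 neurons led by *Pcp4l1* and *Cntn5*, had *Nefm* among its 10 leading genes without its use in the clustering. *Prph* was the most even, with 1.40-fold between the lowest and the highest cluster there and 1.09-fold to 1.88-fold in the other ganglia. Clusters of 1 library have no replicate, and these are descriptions.

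In the stellate and the lumbar, 1 cluster each was led by *Sytl4*, *Cbln2*, *Tlx3*, *Creb5* and *Ghrh*, with 182 and 50 neurons. The stellate one stayed unnamed and entered no transmitter sum, whereas the lumbar one was named noradrenergic and entered the lumbar noradrenergic sum. These clusters joined the highest *Nefm* of their ganglion (578 and 1154 CPM) and the highest *Vim* (846 and 1025 CPM) to the lowest *Nefh* (14.6 and 9.44 CPM). The *Nefh* level was 97.9% of that in glial cells in the stellate cluster and 180% in the lumbar one. Whether it was above background was not tested. Their neurons were shallow, with medians of 9257 and 24515 UMIs, and red blood cell genes stood among the leading genes of the stellate one, at a summed 2593 CPM. The part of depth and of these genes in the pattern was not tested.

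Across clusters, *Nefl* and *Nefm* went together. Over 29 groups (1 cluster in 1 library, at least 20 neurons, named clusters only) the Pearson correlation of log2(CPM + 1) was 0.90 for *Nefl* and *Nefm*, 0.65 for *Prph* and *Nefh*, 0.60 for *Ina* and *Vim*, and -0.57 for *Prph* and *Ina*. Groups of 1 ganglion share a library and its depth, and *Nefl* and *Nefm* overlap in the annotation, so that these values are descriptions. Neuron by neuron, at 4000 UMIs each, the Spearman correlation of *Nefl* and *Nefm* was between 0.31 and 0.56 in the 6 libraries, and the other 14 pairs lay between -0.32 (*Nefl* and *Ina* in the coeliac) and 0.17.

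**Figure D5:**
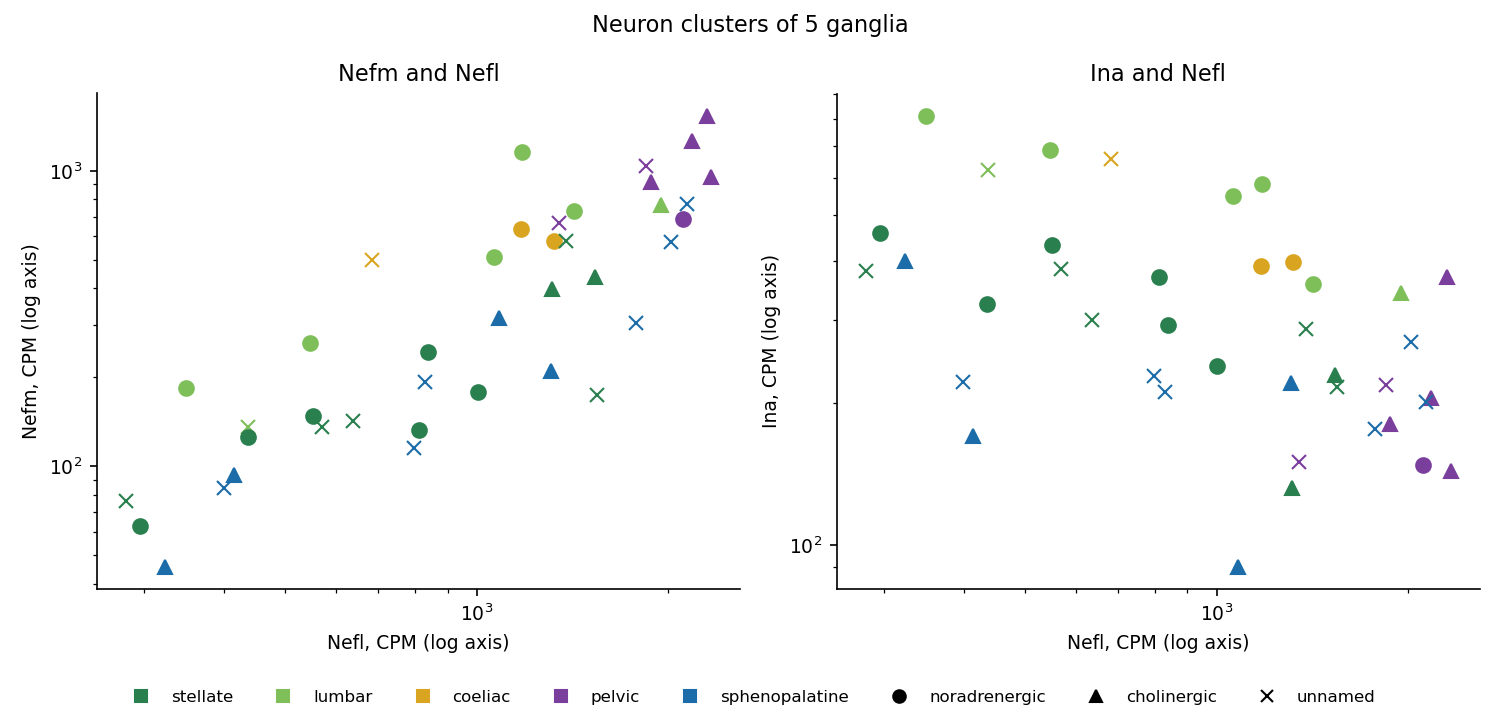
Each point is a neuron cluster, coloured by ganglion and shaped by transmitter class, with *Nefl* in CPM on the horizontal log axis and *Nefm* (left) or *Ina* (right) on the vertical log axis. *Nefm* rises with *Nefl* over the clusters, and *Ina* is highest in the lumbar cluster with the least *Nefl*.

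Among 5082 other genes with at least 50 CPM in any of the 29 groups, the 3 nearest in pattern to *Prph* were *Scube1* (0.85), *Hes1* (0.83) and *Ass1* (0.83). Nearest to *Nefl* were *Nefm* (0.90), *Map7* (0.88) and *Emb* (0.82), and to *Nefm* they were *Nefl* (0.90), *Map7* (0.87) and *Ppp2ca* (0.83). *Nefh* was nearest to *Mir22hg* (0.90), *Blvrb* (0.88) and *Eno2* (0.87). *Ina* was nearest to *Kcnh7* (0.85), *Pou2f2* (0.83) and *Cdk14* (0.80), and *Vim* to *Lmo1* (0.81), *St8sia4* (0.79) and *C130073E24Rik* (0.75).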

How the data were processed

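Single cells of 6 libraries were counted by the authors with Cell Ranger 6.0.1 on mm10, per the labels, and the deposited values are counts of UMIs for each gene and droplet, not normalized. Retained were droplets in which between 1500 and 11000 genes were detected and mitochondrial UMIs stayed below 15%. Counts were transformed with sctransform 0.4.2, and neurons had a mean of *Stmn2*, *Stmn3*, *Gap43* and *Tubb3* above 3 and a mean of 5 glial markers below 1.15. Cells above the glial and not the neuronal value were taken as glial. Neurons of each ganglion were clustered by Louvain at resolution 0.3 (2000 variable genes, 30 components, 20 neighbours; igraph 0.11.9) without the 6 genes. Cells with over 50% simulated doublets among 30 neighbours (7.97% to 15.8% of a library) were left out only as an alternative.

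Naming a cluster took 3 or more of 4 transmitter markers, each at 5% or more of its highest level over all clusters. The class was the one with the higher mean of these relative levels. A pelvic name took 3 or more of its 5 markers, and fewer than 3 of every other name, at 50% or more of their highest level over the pelvic clusters. A cluster stayed unnamed where markers of another cell type or of the other transmitter outnumbered its own among its 10 leading genes. A shallow cluster without a marker of its own among them also stayed unnamed. This rule was set after the clusters were seen. Counts were summed for each library and class and tested with edgeR 4.0.16 (TMM, filterByExpr, quasi-likelihood test), with library as a block, or round for pelvic against sympathetic neurons. DESeq2 1.42.0 was an alternative. An adjusted p below 0.05 was called. The fits were first tested on simulated data, where calls between transmitter classes and between pelvic and sympathetic neurons held more unchanged genes than the adjusted p aims at. Unchanged genes were 14.6% of the calls between transmitter classes and 12.2% of those between pelvic and sympathetic neurons.

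The members and the gene lists were chosen with earlier results of these data known. Other genes named in a list are the 3 with the largest differences among those called, and some genes are not reported here. Nothing states that libraries came from separate litters, so that p-values measure the spread between libraries. Intervals cover counting error only.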

Additional observations from a re-analysis of the deposited data

Results flagged for a closer look

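The effect of transmitter class on 2 of the 6 genes differed between the pelvic and the sympathetic libraries, by an interaction term added after the values were seen. For *Nefl*, cholinergic minus noradrenergic neurons was higher by about 1 log2 unit in the stellate and the lumbar and near 0 or below it in the pelvic libraries, and the difference of these effects, pelvic minus sympathetic, was -1.16 (SE 0.19, log2; adjusted p = 0.0065, edgeR quasi-likelihood test). For *Ina*, cholinergic neurons were lower in 2 of 2 sympathetic libraries and higher in 2 of 2 pelvic ones, and the difference was 1.46 (SE 0.18; adjusted p = 0.0016). For *Nefl* the direction was the same in 15 of 15 alternatives and the test passed in 13, the exceptions being without pelvic_1 (adjusted p = 0.071) and with simulated doublets removed (adjusted p = 0.081). For *Ina* the direction was the same in 15 of 15 and the test passed in 14, the exception being with simulated doublets removed (adjusted p = 0.057). The sympathetic cholinergic sums held 56 neurons, of which 28 had more noradrenergic than cholinergic marker CPM as a cluster, and 84 lumbar neurons. Those 84 had a median of 7779.5 UMIs and 4069254 UMIs together, so that the deeper of them gave most of that sum. The part of these neurons in the difference was not tested.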

How the results depend on the processing

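In neurons against glia, the calls and directions of the 6 genes were the same in 16 of 16 alternatives. For transmitter classes, 887 genes were called, against 1829 with DESeq2, 1351 without the count filter, 279 with no block, 483 with selection on log counts, 430 without exclusion by glial markers, 301 with doublets removed, 58 with classes per neuron, 269 at 4000 UMIs and 170 to 668 on leaving out 1 library (450 without the stellate, 181 and 170 without pelvic_1 and pelvic_2). Of the 6 genes, 2 were called higher, against 1 with log counts, 0 with no block, without glial exclusion, with doublets removed or with classes per neuron, and 1 to 1 on leaving out 1 library. For pelvic clusters, DESeq2 called 1380 genes in P1-like (2075 with edgeR) and 2025 in P2-like (3079). In P1-like, 1 of the 6 was called lower, against 2 without the count filter, with stricter glial exclusion or with the 6 genes in the clustering, and 0 with doublets removed. In P4-like it was 1, against 2 with log counts. *Ina* in P2-like turned from -0.04 to 0.34 (adjusted p = 0.024) with doublets removed, where no P4-like cluster was found. No library could be left out there, since no residual degrees of freedom remained. Pelvic against sympathetic neurons gave 478 genes, against 1009 with DESeq2, 1963 without the count filter, 136 with no term for round, 903 without and 309 with stricter glial exclusion, 899 with doublets removed, 914 at resolution 0.6, 966 with the 6 genes in the clustering, 954 with classes per neuron and 0 to 1630 on leaving out 1 library (13 without the stellate, 864 without the lumbar, 1630 without the coeliac). The 0, in edgeR, fell without pelvic_1 (643 higher and 764 lower at an unadjusted p below 0.05) and without pelvic_2 (628 and 745). The 6 genes gave 1 higher and 2 lower, against 0 and 0 with no term for round or stricter glial exclusion, 0 to 2 and 0 to 2 on leaving out 1 library, and 2 higher with the others of these settings, *Nefm* joining *Nefl*. The causes were not tested. No paired analysis was possible because the ganglia share fewer than 2 replicate numbers, while contrasts within a library were paired by the library block.

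Each ganglion but the pelvic had 1 library, and rounds differ in chemistry and depth. Coeliac neurons numbered 237, and *Nefh*, the rarest of the 6, had a median of 1 to 15 UMIs a neuron, so that its share of neurons with a UMI follows depth.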

Other observations

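The 6 genes also differed with how many UMIs a neuron held. *Nefh* was higher in the deepest 1 of 5 equal depth bins of neurons than in the shallowest in 6 of 6 libraries, at 83.5 against 20.0 CPM in the stellate, 107 against 22.9 in the lumbar, 101 against 32.3 in the coeliac, 124 against 71.1 in the sphenopalatine, and 159 against 92.0 and 205 against 129.6 in the pelvic libraries. *Nefl* was also higher in the deepest bin in each library, from 935 against 674 CPM in the stellate to 1355 against 575 in the sphenopalatine. *Vim* was lower in the deepest bin in each library, most in the stellate (325.5 against 715 CPM). *Prph* was higher in the deepest bin of the lumbar and the coeliac and lower in that of the other 4 libraries.

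Outside neurons and glia, *Vim* was at 1217 to 2794 CPM in fibroblast-like, 1559 to 3919 in endothelial-like, 1697 to 4063 in mural-like and 182 to 731 in macrophage-like cells.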
